A study of Mus musculus with 2 samples.

Results

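The cells described here are T cells with the transcripts of an interferon response. They were selected from 2 single-cell libraries by the sum of the UMIs (unique molecular identifiers, 1 per captured transcript) of 5 genes, Ifit1, Ifit3, Isg15, Rsad2 and Usp18. Barcodes with fewer than 200 genes, or with over 10% of their UMIs from mitochondrially encoded (mt-) genes, were left out. Members were kept cells with at least 5 UMIs over the 5 genes and at least 1 UMI of Cd3d, Cd3e or Cd3g, the CD3 chains of the T cell receptor complex. This gave 208 members of 7396 barcodes and of 6686 CD3-positive kept cells, of which 111 are control and 97 Id2-deficient cells. They are described against the 5217 CD3-positive cells in which the 5 genes had 0 UMIs (3934 control and 1283 Id2-deficient cells, called the reference). The other 1261 CD3-positive cells, with a sum of 1 to 4, lie between and belong to neither group.

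Both libraries hold CD4+ YFP+ cells sorted from mice at peak disease in EAE (experimental autoimmune encephalomyelitis), the mouse disease used to model multiple sclerosis, after immunization with MOG, a myelin protein, in complete Freund's adjuvant (CFA). The control mice were Il17Cre/R26YFP, in which Cre made from the Il17 locus switches on YFP, so that YFP marks a history of interleukin 17 expression rather than its present expression. The Id2-deficient mice were Il17Cre/Id2f/f/R26YFP, carrying the same Cre and reporter with floxed Id2 alleles. Each genotype is 1 library, the number and age of the mice are not given in the sources used here, and the labels name the tissue in different ways (draining lymph node, spleen and lymph node, or spleen). No difference below could be checked on further libraries of a genotype, and the 95% intervals account for counting error alone.

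Type I interferons bind the receptor made of Ifnar1 and Ifnar2, and the kinases Jak1 and Tyk2 then activate transcription factors of the STAT family. Stat2 and Irf9 are parts of a complex that binds interferon-stimulated response elements (ISREs) in the promoters of many antiviral genes, while interferon gamma acts through GAS elements. In T cells, type I interferon also shapes activation and keeps cells in lymphoid tissue through the surface protein CD69, which pulls the exit receptor S1pr1 from the membrane.

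Promoter sequences of the selecting genes and of the genes that stood highest in members are shown first where they hold a match to the element that this signalling complex binds. Usp18, Dhx58, Ifi204, Iigp1 and Rtp4 have no entry. They are 50-base windows of RefSeq promoters (GRCm38.p6), written 5′ to 3′ on the strand of the gene, with capitals marking each match to GAAANNGAAA, the core of the ISRE on either strand (on the reverse strand it starts with TTTC). The windows are Ifit1 at chr19:34640765-34640814 (plus strand), Ifit3 at chr19:34583353-34583402 (plus), Isg15 at chr4:156200867-156200916 (minus), Rsad2 at chr12:26456543-26456592 (minus), Oas3 at chr5:120777705-120777754 (minus), Slfn5 at chr11:82951927-82951976 (plus), Ifi213 at chr1:173599316-173599365 (minus) and Ifi214 at chr1:173536007-173536056 (minus).
Ifit1: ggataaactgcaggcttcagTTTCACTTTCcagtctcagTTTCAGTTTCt
Ifit3: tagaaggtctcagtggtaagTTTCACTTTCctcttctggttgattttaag
Isg15: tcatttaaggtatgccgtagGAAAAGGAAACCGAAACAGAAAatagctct
Rsad2: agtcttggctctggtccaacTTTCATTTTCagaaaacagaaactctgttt
Oas3: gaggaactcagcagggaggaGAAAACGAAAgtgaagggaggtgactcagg
Slfn5: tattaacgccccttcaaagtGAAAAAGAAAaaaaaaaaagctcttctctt
Ifi213: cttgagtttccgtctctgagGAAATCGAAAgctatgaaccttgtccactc
Ifi214: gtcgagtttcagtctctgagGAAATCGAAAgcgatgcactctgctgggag

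The Ifit1 window holds 2 separate matches and the Isg15 window a run of overlapping ones. The windows of Ifi213 and Ifi214, neighbouring members of the Ifi200 family of nucleic acid sensors, carry the same core and differ around it. The window of Ifit3b, a near-identical copy of Ifit3, has the same letters as that of Ifit3, and reads from this pair cannot be told apart with certainty. Over the promoters of 300 bases in the RefSeq table, the core was found in 3.99% of 27025 genes and in 3.95% of the genes measured here. It was found in 40 of the 93 genes with a promoter entry that were at least 2-fold higher in members of both libraries (43.0%), and in 1 of 61 that were at least 2-fold lower (1.64%). By role, 9 of 10 guanylate-binding and immunity-related GTPase genes with an entry held it, 13 of 24 antiviral effector genes, 5 of 10 nucleic acid sensors, 5 of 14 class I antigen presentation genes and 4 of 17 Schlafen, Ly6 and related genes. Among the interferon ligand genes, of which only Ifng was measured in these cells, 4 of 10 held it. It was rarer in the remaining roles, in 2 of 11 signalling genes, 1 of 5 feedback genes, 0 of 5 genes around Isg15 conjugation and 0 of 5 receptor genes. The GAS letters TTCNNNGAA were found in 9.55% of all promoters, in 17.2% of the higher and in 16.4% of the lower genes. A match is a description of the letters and not a shown binding site, and Cmpk2, Isg20 and Oasl2 held no match to the ISRE core in this window.

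The targeted gene was read first as a check of the labels. Among members, Id2, an inhibitor of E-protein transcription factors, was read with 314 control and 13 Id2-deficient UMIs, or at 307 and 16.4 CPM (UMIs per 1000000 UMIs of the group of cells). In the reference it stood at 344 and 13.1 CPM. The members of the Id2-deficient library were thus as low in Id2 as the rest of their library, with a log2 ratio of -4.22 (-5.15 to -3.43) to the control members. The floxed exons are not given in the sources used here, and a 3′ library counts the transcript's end. Over the whole libraries, the control held 33646845 and the Id2-deficient library 14668624 UMIs. The cell filter removed 0.243% of control and 21.4% of Id2-deficient barcodes. The median member had 1.70% and 3.81% of mt- UMIs, close to the 1.76% and 4.22% of the reference. The 2 libraries share 3 barcode sequences, and 0 members are among them.

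Members made up 2.31% of CD3-positive control cells (111 of 4800, with 1.91% to 2.78% by Clopper-Pearson) and 5.14% of Id2-deficient cells (97 of 1886, 4.19% to 6.24%). The share was 2.22 times as high in the Id2-deficient library (1.68 to 2.95). Because deep cells reach a sum of 5 more easily, cells were also thinned to 2000 UMIs each, with 29 (control) and 18 (Id2-deficient) cells too shallow for it. With at least 2 UMIs of the 5 genes after thinning, the shares were 2.41% (1.99% to 2.89%) and 5.46% (4.47% to 6.59%). In cells split at 4929 and 6803 UMIs into 3 depth bands, the control shares from the shallowest to the deepest cells were 1.60%, 1.96% and 3.61%, and the Id2-deficient shares 3.34%, 4.62% and 6.49%. The Id2-deficient share was the higher one in every band, by 2.09, 2.35 and 1.80 times. The libraries differ in their mix of cell states, and over the 7 clusters with at least 25 cells of each library, weighted to the pooled mix of both, the shares were 3.06% and 4.98%, a ratio of 1.63 where the same clusters gave 1.95 unweighted. Without the mt- limit the shares were 2.31% and 4.58% (ratio 1.98). Of the CD3-positive cells over the limit, 0 of 2 control and 2 of 276 Id2-deficient cells had a sum of at least 5.

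The threshold lies on a gradual slope of cell numbers. A sum of 4, just outside, occurred in 30 cells of the control and 29 of the Id2-deficient library, and a sum of 5, just inside, in 24 and 19. Members with a sum of 5 to 9 numbered 65 and 55, those with 10 to 19 numbered 26 and 25, and those with 20 or more 20 and 17. The median member sum was 9 (control) and 8 (Id2-deficient), and the highest 121 and 52. Members were somewhat deeper than the reference, at a median of 6500 against 5354.5 UMIs for the control and 7420 against 6179 for the Id2-deficient library. The deepest member, a control cell, held 51419 UMIs. Among kept cells without CD3 UMIs, 3 of 125 control and 1 of 48 Id2-deficient cells had a sum of at least 5.

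The 5 selecting genes were not used in the same proportions in both libraries. These values chose the members and are given as a description. Isg15, a ubiquitin-like protein that is attached to other proteins, stood at 614 CPM in control members (567 to 664) and at 286 CPM in Id2-deficient members (250 to 325). It supplied 43.0% of the selecting UMIs for control and 19.3% for Id2-deficient cells, and 1 control cell held 10.4% of the control Isg15 UMIs. Ifit1, which binds viral RNA that lacks the host's cap marks, went the other way, at 346 CPM (311 to 384) and 598 CPM (545 to 654). Usp18, the protease that removes Isg15 and blocks the interferon receptor, stood at 63.6 and 140.3 CPM. Ifit3, a partner of Ifit1, stood at 263 and 341 CPM, and Rsad2 (viperin), which makes a chain-terminating nucleotide, at 141 and 119 CPM. Over all CD3-positive cells, members or not, Isg15 was at 38.9 CPM in the control (36.8 to 41.1) and 38.3 CPM in the Id2-deficient library (35.1 to 41.7), whereas Ifit1 was at 17.9 and 52.6 CPM and Usp18 at 3.93 and 13.8 CPM. All 5 genes were seen together in 19 of 111 control and 27 of 97 Id2-deficient members, and 7 and 2 members reached the threshold through 1 gene alone.

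Genes outside the rule were compared next by their summed UMIs in members and in the reference of the same library. Of 10333 genes with at least 20 UMIs in each library, 123 were at least 2-fold higher in members in both libraries (1.19%) and 84 at least 2-fold lower in both (0.813%). For these calls a gene without UMIs in a group was given 3 UMIs. A gene without UMIs in control members and with few in the reference could thus pass 2-fold in that library. Of the 123 higher genes, 60 belong to the interferon lists, and for 101 of them the lower bound was above 0 in both libraries. Of the 84 lower genes, 6 had an upper bound below 0 in both. The median log2 ratio of all tested genes was -0.02 for control and -0.10 for Id2-deficient cells.

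**Figure D1:**
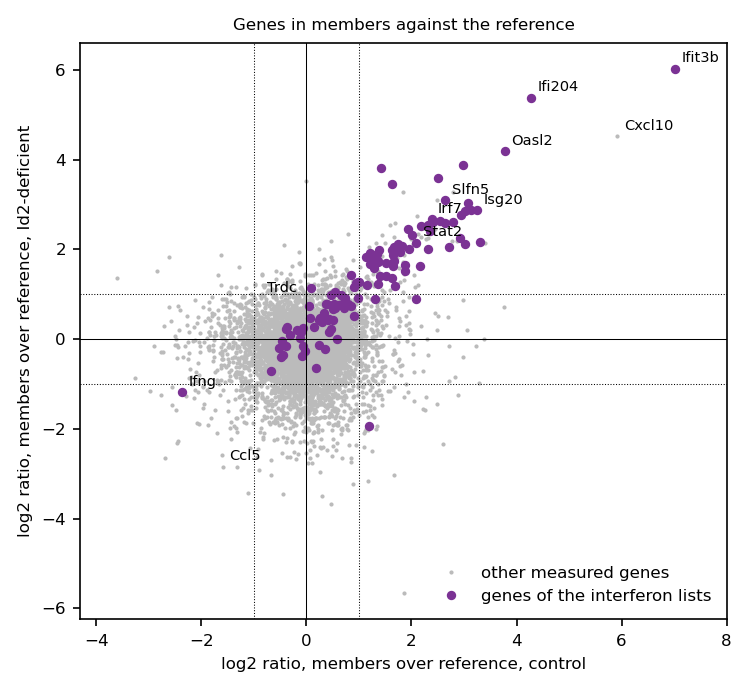
Each point is a gene with at least 20 UMIs in each library and a UMI in members and reference of both, placed by its log2 ratio of members over reference in the control (x axis) and the Id2-deficient library (y axis). Dotted lines mark 2-fold, and 60 of the 123 genes that were at least 2-fold higher in both libraries, in the upper right corner, belong to the interferon lists (purple), up to Ifit3b at 7.02 and 6.03. Ifit3b is a near-identical copy of the selecting gene Ifit3, and its place may be set in part by the selection.

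The interferon-stimulated genes other than the 5 were higher in members as a group. Of 77 measured genes of 87 listed, 57 were at least 2-fold higher in both libraries, against 1.19% of all tested genes, and 0 were lower. Their median log2 ratios were 1.63 and 1.83. Their summed level was 19587 CPM in control members against 8397 CPM in the reference, and 24357 against 9033 CPM in the Id2-deficient library. Since members were selected on genes of the same response, this describes the selected cells and is no independent test. Within members, the summed level was 0.31 higher on the log2 scale in the Id2-deficient library (0.29 to 0.34), but 0.14 with each cell weighted equally. Within the reference, by summed UMIs, it was 0.11 higher in that library as well (0.09 to 0.12).

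Among antiviral effectors 17 of 22 genes reached 2-fold in both libraries, at summed log2 ratios of 1.65 and 1.66. Ifit3b stood at 71.4 CPM against 0.549 CPM in the control (log2 ratio 7.02, interval 6.18 to 7.96) and at 93.5 against 1.43 CPM in the Id2-deficient library (6.03). Oasl2, a relative of the RNA-sensing oligoadenylate synthetases, stood at 48.9 against 3.57 CPM (3.78) and at 112 against 6.17 CPM (4.19). Oas3, an oligoadenylate synthetase that activates RNA decay, had log2 ratios of 3.03 and 2.87, and Isg20, an exonuclease, 3.25 and 2.87. Cmpk2, a mitochondrial nucleotide kinase that neighbours Rsad2, stood at 2.97 and 3.88, and Rtp4 at 3.14 and 2.88. The most abundant gene of the list, Ifi27l2a, was at 3634 against 989 CPM for the control and 5459 against 1906 CPM for the Id2-deficient library.

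Genes that detect nucleic acids followed, with 10 of 13 higher in both libraries. Ifi204 had log2 ratios of 4.28 and 5.38, Ifi213 of 2.54 and 2.64 and Dhx58, a regulator of RNA sensing, of 3.08 and 3.03. Ifi203, the most abundant of them, was at 702 against 305 CPM and at 1036 against 275 CPM. Aim2, a DNA sensor that starts inflammasomes, stood apart at -0.48 (-1.22 to 0.17) and -0.39 (-1.22 to 0.33). Of the 7 genes around Isg15 conjugation, 6 were higher. Ube2l6, which carries Isg15 to its targets, stood at 2.51 and 3.60 and the ADP-ribosyltransferase gene Parp14 at 1.66 and 1.74, and Uba7, which activates Isg15, at 1.31 and 0.90.

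Of 15 guanylate-binding and immunity-related GTPase genes, which attack the vacuoles of intracellular pathogens, 14 were higher in both libraries. Iigp1 had log2 ratios of 2.95 and 2.76, the abundant Ifi47 of 1.29 and 1.57, and Gbp8 was the lowest at 0.68 and 0.77. Among Schlafen, Ly6 and other interferon-induced genes of lymphocytes, 10 of 20 were higher. Slfn5 was at 282 against 45 CPM in the control and 533 against 62.1 CPM in the Id2-deficient library (2.65 and 3.10). Ly6a (Sca-1), the most abundant, was at 0.90 and 1.17. Ly6c2 was higher in control members (1.19), where 1 cell held 57.1% of its UMIs, and had 1 UMI in Id2-deficient members.

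Class I antigen presentation moved little by comparison. Of 16 genes, 0 were 2-fold higher in both libraries, and the summed log2 ratios were 0.23 (0.20 to 0.25) and 0.41 (0.38 to 0.44). H2-T22, a nonclassical class I gene, was highest at 0.99 and 0.91, and Erap1, which trims peptides, lowest at -0.38 and -0.16, both intervals including 0. H2-D1, a classical class I heavy chain, was at 3041 against 3165 CPM for the control (-0.06, and 0.14 in cells of the members' middle depths) and 2690 against 2254 CPM for the Id2-deficient library. Class I RNA was thus already abundant in the reference cells.

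**Figure D2:**
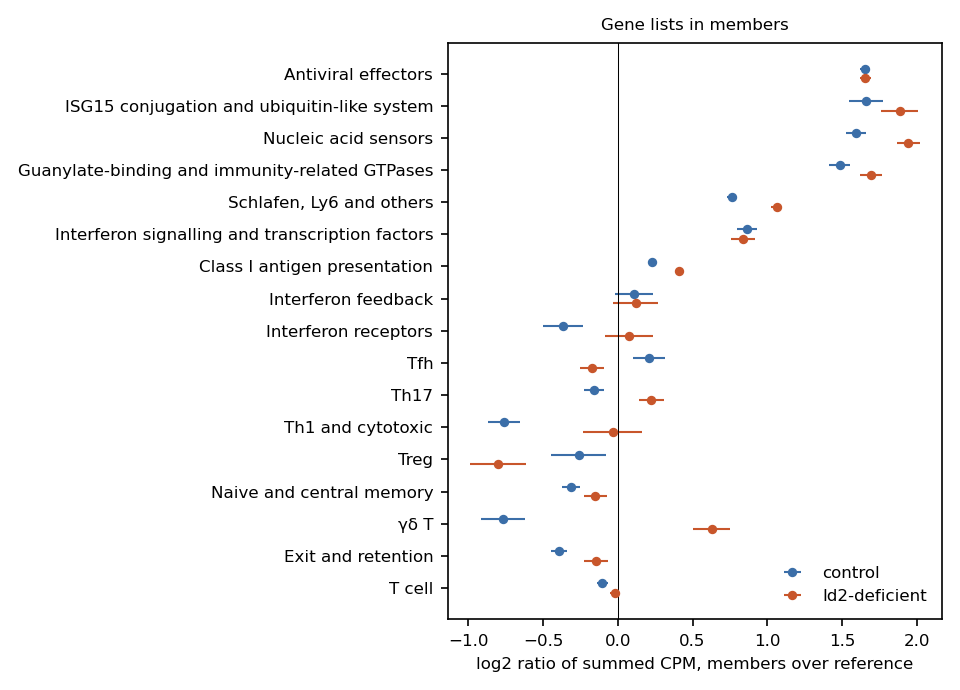
Points give the log2 ratio of summed CPM in members over reference for each gene list and library, with 95% counting intervals. The 5 lists of interferon-stimulated genes lie between 0.76 and 1.94, class I genes at 0.23 and 0.41, and the γδ T list on opposite sides of 0.

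The signalling and transcription factor genes were higher in members as a list, at summed log2 ratios of 0.87 (0.80 to 0.93) and 0.84 (0.76 to 0.92), with medians of 0.51 and 0.52. Of 12 signalling and transcription factor genes, 3 were at least 2-fold higher in both libraries, among them Irf7 (log2 ratio 2.38 and 2.68) and Stat2 (2.09 and 2.15). Irf7 was at 314 against 60.1 CPM for the control and 249 against 38.8 CPM for the Id2-deficient library. Irf9, the DNA-binding partner of Stat2, stood at 0.98 (0.68 to 1.26) and 1.28 (0.99 to 1.56). Irf1, a target of interferon gamma, was at 0.34 and 0.57, Irf2 at 0.42 and 0.16, and the kinases Jak1 (-0.06 and -0.14) and Tyk2 (0.59 and 0.01) had intervals that included 0. Irf8 was at 2.08 for control and 0.89 for Id2-deficient cells, on 19 and 15 UMIs, with 36.8% of the control UMIs in 1 cell.

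Of the 5 measured receptor genes, 0 were 2-fold higher or lower in both libraries. Ifnar1 stood at 25.4 against 33.0 CPM in the control and 49.3 against 40.9 CPM in the Id2-deficient library, and Ifnar2 at 56.7 against 59.8 and 61.9 against 80.8 CPM, with all 4 ratio intervals including 0. Il10rb (-0.45 and -0.35) and Ifngr2 (-0.67 and -0.72), on few UMIs, also had intervals that included 0. Ifngr1, the abundant chain of the interferon gamma receptor, was lower in control members (-0.39, interval -0.55 to -0.23) and higher in Id2-deficient members (0.24, 0.03 to 0.43). Of the feedback genes 0 of 7 reached 2-fold in both libraries. Socs1, an inhibitor of the receptor kinases, came closest at 0.62 (0.40 to 0.83) and 0.77 (0.52 to 1.01), Socs3 was at -0.52 and -0.20 and Ptpn6 at 0.24 and -0.13. The only ligand gene measured was Ifng, with 7 UMIs in control and 1 in Id2-deficient members (6.85 against 35.3 CPM, and 1.26 against 2.87 CPM).

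The response was graded below the threshold as well as above it. The other interferon-stimulated genes summed to 8397 CPM in control cells with 0 UMIs of the selecting genes, 10093 with 1, 11368 with 2 and 13810 with 3 to 4. Members with 5 to 6 stood at 13344, those with 7 to 9 at 20212, those with 10 to 19 at 21853 and those with 20 or more at 26800 CPM. In the Id2-deficient library the same bins held 9033, 10828, 12814, 14441, 19812, 20392, 27371 and 37316 CPM. Cells just outside the threshold were therefore not free of the response. In the control, the summed level with 5 to 6 UMIs was no higher than that with 3 to 4. The median cell, however, was at 16403 CPM in the control bin of 5 to 6 and at 13464 CPM in that of 3 to 4.

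**Figure D3:**
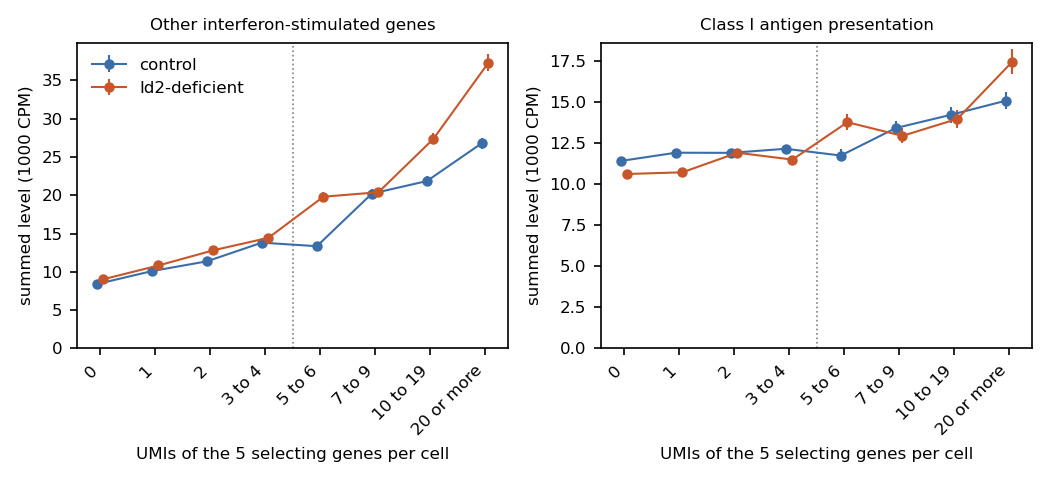
The x axes give bins of the summed UMIs of the 5 selecting genes per cell, with the member threshold as a dotted line, and the y axes the summed level of a gene list (CPM) with 95% Poisson intervals. The other interferon-stimulated genes rise from 8397 to 26800 CPM (control) and from 9033 to 37316 CPM (Id2-deficient), and class I genes less steeply.

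The helper and γδ states of the members were read from clusters of all CD3-positive cells, made without the interferon genes so that cluster membership is not set by the rule. Clusters were named from fixed marker lists, and the names are rebuilt here and not the authors'. In the control, 28 of 111 members lay in clusters like Tfh (follicular helper) cells, the partners of B cells (25.2%, interval 17.5% to 34.4%), against 9.74% of the reference. Members like Th1 and cytotoxic cells, the makers of interferon gamma and granule proteins, numbered 8 (7.21%, 3.16% to 13.7%), against 22.2% of the reference. Th17-like members numbered 32 (28.8%, against 32.3%), γδ T-like members 18 (16.2%, against 18.0%) and naive and central memory-like members 13 (11.7%, against 11.7%), all with intervals that included the reference share. A small cluster of the last class, with 13 control and 6 Id2-deficient cells, was led by the CD8 genes Cd8b1 and Cd8a and held 1 of these members.

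In the Id2-deficient library 57 of 97 members were Tfh-like (58.8%, 48.3% to 68.7%), against 53.4% of the reference. γδ T-like members numbered 13 (13.4%, 7.33% to 21.8%), against 7.56%, and naive and central memory-like members 21 (21.6%, 13.9% to 31.2%), against 30.3%. Th17-like members numbered 3 and Th1-like members 0, in clusters that held 58 and 9 cells of this library. Within the Tfh-like class, the cluster led by Izumo1r and Id3 held 51.5% of members (41.2% to 61.8%) against 36.2% of the reference, and the one led by Rgs16, Pdcd1 and Il21 held 7.22% (2.95% to 14.3%) against 17.2%. In the control both clusters held more of the members than of the reference, 16.2% against 6.63% and 9.01% against 3.10%. In the Izumo1r and Id3 cluster, the genes ranked first were Izumo1r, Id3, Rflnb, Dennd2d, Nsg2, Cd27, Slamf6, Mxd4, Myb and Dleu2. Cxcr5, Bcl6, Pdcd1 and Il21 were not among them, although 7 Tfh markers were among its 50 leading genes.

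Within a class, the share of members could be compared between libraries. Of Tfh-like cells 5.04% (28 of 556, 3.37% to 7.20%) were members in the control and 5.33% (57 of 1069, 4.06% to 6.85%) in the Id2-deficient library. The values of the 2 clusters of this class lay in opposite orders. In the one led by Izumo1r and Id3 the shares were 4.90% (2.93% to 7.64%) and 6.60% (4.94% to 8.60%), and in the one led by Rgs16, Pdcd1 and Il21 they were 5.29% (10 of 189, 2.57% to 9.51%) and 2.25% (7 of 311, 0.910% to 4.58%), with overlapping intervals in each. Of γδ T-like cells 2.17% (18 of 828, 1.29% to 3.41%) were members in the control and 9.92% (13 of 131, 5.39% to 16.4%) in the Id2-deficient library, with intervals that do not overlap. These γδ T-like cells had a median depth of 5648 and 8131 UMIs, so that depth moves with this difference, and its part in the result was not tested. In the large naive and central memory-like cluster, without the one led by CD8 genes, 2.18% (12 of 550) and 3.97% (21 of 529) were members. Of Th1 and cytotoxic-like cells 0.826% were members among control cells (8 of 968, 0.357% to 1.62%) and 0 of 9 among Id2-deficient cells.

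**Figure D4:**
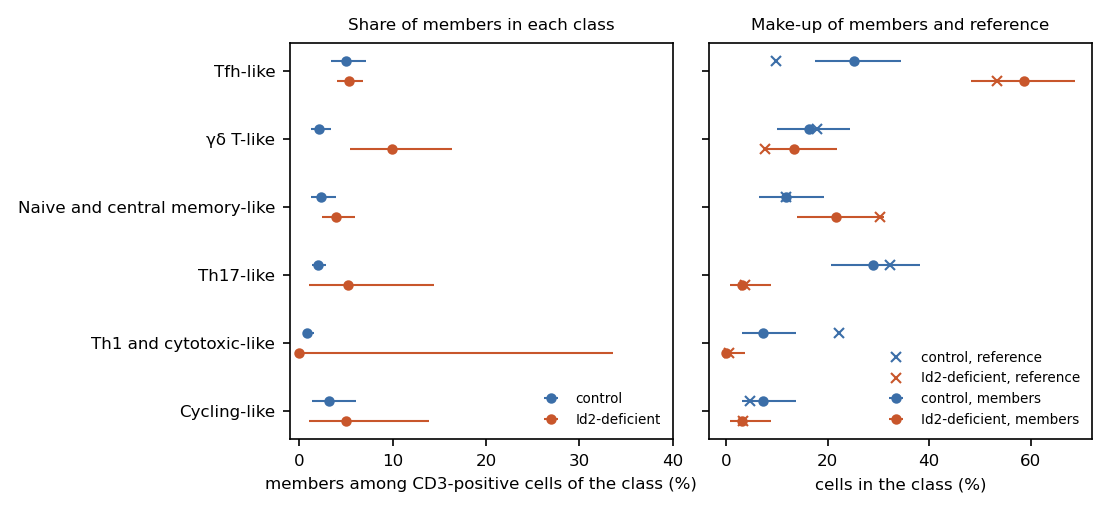
The left panel gives the share of members among CD3-positive cells of each class, and the right panel the share of members (circles) and of reference cells (crosses) that fall in it, with 95% Clopper-Pearson intervals. Control members hold more Tfh-like cells than their reference (25.2% against 9.74%) and fewer Th1-like cells (7.21% against 22.2%).

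State genes were also summed over members and reference, without clusters. Of the 7 state lists, 3 went the same way in both libraries. The Treg list was lower in both (log2 ratio -0.26 and -0.80), although the control value was 0.01 in cells of the members' middle depths, with Tnfrsf18, a costimulatory receptor, at -0.34 and -1.18, and Izumo1r, which Tfh cells share, at 0.17 and -0.90. The naive and central memory list was at -0.31 and -0.15. The Th1 and cytotoxic list was lower in the control (-0.76, interval -0.87 to -0.65), and in the Id2-deficient library its interval included 0 (-0.03, -0.24 to 0.16). The chemokine gene Ccl5 was at 113 against 343 CPM in the control and 8.85 against 63.5 CPM in the Id2-deficient library, but 1 cell held 50% of its UMIs in control and 85.7% in Id2-deficient members. Cxcr6, a chemokine receptor of effector cells, was lower in control members (-0.40) and higher in Id2-deficient members (0.48, but -0.11 with a sum of at least 10), and Tbx21, the Th1 regulator, had 9 and 0 UMIs.

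The Tfh list stood at 0.21 (0.10 to 0.32) in the control and at -0.17 (-0.25 to -0.09) in the Id2-deficient library. Icos, a costimulatory receptor, was higher in both (0.46 and 0.32), and Tox2, a Tfh regulator, was at -0.36 and -0.97. After thinning, control members against reference had Cxcr5 in 3.60% and 2.41%, Bcl6 in 1.80% and 1.48%, Pdcd1 in 7.21% and 5.09%, and Il21 in 3.60% and 1.25%. In the Id2-deficient library these shares were 9.28% and 14.4%, 4.12% and 6.01%, 9.28% and 13.7%, and 9.28% and 6.96%. The interval of the members included the reference share in each case. The Th17 list stood at -0.16 and 0.22, the latter -0.04 with a sum of at least 10. Il17a, a cytokine gene of Th17 cells, had 0 UMIs in control and 2 in Id2-deficient members. Without thinning, Il17a or its relative Il17f was seen in 6.31% of control members and 6.35% of the reference. In the Id2-deficient library these shares were 11.3% and 6.55%. The cytokine gene Il22 was seen in 2.7% and 3.86% in the control, and in 17.5% and 9.74% in the Id2-deficient library. After thinning, the interval of the members included the reference share in each of these cases. The interleukin 23 receptor gene Il23r was at 0.18 and 0.77 and Tmem176a, an ion channel-like gene abundant in Th17 cells, at 0.01 and 0.27. The cycling list was 0.82 for control and -0.16 for Id2-deficient cells, and it was -1.66 and -0.84 when members and reference were limited to the middle depths of the members.

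The γδ T list went opposite ways, at -0.77 (-0.92 to -0.62) in the control and 0.63 (0.50 to 0.75) in the Id2-deficient library. With members and reference limited to the interquartile range of the members' depth it was 0.05 and 0.66, so that the control direction was lost and the Id2-deficient one was not. Trdc, the constant gene of the δ chain, was at 88 against 160.5 CPM for the control and 284 against 150.4 CPM for the Id2-deficient library, where 1 cell held 19.1% of the UMIs. After thinning, Trdc was seen in 11.7% of control members and 14.1% of the reference, and in 13.4% and 8.22% in the Id2-deficient library. Without thinning the shares were 17.1% and 19%, and 17.5% and 9.35%. In cells gated as B cells, which should lack Trdc, it had UMIs in 0 of 38 cells (control) and 0 of 33 cells (Id2-deficient), at median depths of 3646.5 and 4954 UMIs, which allows shares of up to 7.89% and 9.09% by a floor of 3 cells, and 9.25% and 10.6% by the Clopper-Pearson bound. Sox13, a γδ T cell transcription factor, was at -0.09 and 1.12, and Tcrg-C4 at -1.23 and -0.40.

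Genes of tissue exit and retention were mostly below the reference in members, although some, Cd69 among them, were above it in both libraries. The list stood at -0.39 (-0.45 to -0.34) and -0.15 (-0.23 to -0.07). Klf2, which keeps cells recirculating, was at 930.1 against 1292 CPM for the control and 312 against 417 CPM for the Id2-deficient library (-0.47 and -0.42). S1pr1, its target and the receptor for exit, was at 158 against 218 CPM and 92.2 against 141 CPM (-0.46 and -0.61), and the integrin gene Itga4 at -0.52 and -0.97. Cd69 was higher, at 144 against 109 CPM (0.41, 0.16 to 0.65) and 222 against 127 CPM (0.81, 0.57 to 1.04). After thinning, Cd69 was seen in 25.2% of control members against 18.7% of the reference, and in 39.2% against 18.5% in the Id2-deficient library, with 28.9% and 27.3% in the B cell gates, a cell type that also expresses Cd69. Without thinning the shares were 55.9% and 38.2%, and 66.0% and 38.4%. Ccr7, which guides cells within lymph nodes, was at -1.03 and -0.42, the former 0.07 in cells of the members' middle depths, and Il7r, the interleukin 7 receptor chain, at -0.17 and 0.23.

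The genes with the lowest upper bounds over both libraries changed by less than the highest ones. Besides Klf2, S1pr1 and Itga4 they included the survival gene Bcl2 (-0.58 and -0.84), the lymphocyte GTPase genes Gimap6 (-0.54 and -0.43) and Gimap3 (-0.33 and -0.43), the actin-binding gene Tagln2 (-0.45 and -0.43) and Glud1, glutamate dehydrogenase (-0.41 and -0.55). Pglyrp1 (-0.92 and -1.22), Sh3bp5 (-0.95 and -1.22) and Fam117b (-0.97 and -1.04) were lower by more but rest on 9 to 28 UMIs in members. The abundant nuclear RNA Malat1, at 15567 CPM in control members, was at -0.19 and -0.22, the former 0.09 in cells of the members' middle depths. In the apoptosis and survival list, Xaf1, a proapoptotic gene that interferon induces, was the highest at 2.41 and 2.61.

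Between the libraries, most of the named differences within members stood beside a difference of like size in the reference. Ifitm2, an interferon-induced membrane protein, was lower in Id2-deficient members by a log2 ratio of -3.01 (-3.88 to -2.24), and in the reference by -3.70. Vim (-1.60 in members, -2.06 in the reference), Anxa2 (-1.95 and -2.15), Klf2 (-1.58 and -1.63) and Myb (2.98 and 2.53) had like values in both, as did mt-Atp6 (1.76 and 1.71). Lmna was at -2.88 in members (-4.83 to -1.40) and -1.51 in the reference. Ighm was higher in Id2-deficient members (2.41), on 60 and 246 UMIs. In the reference it was at -0.08, but there 1 control cell held 78.6% of the control UMIs.

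Markers of the cells that a CD4 sort can carry along were read over whole lists. The T cell list stood at 6405 CPM in control members against 6886 in the reference, and at 8932 against 9062 CPM in the Id2-deficient library. Trbc2, the constant gene of the T cell receptor β chain, was at -0.13 and 0.18, and Cd4 at 138 against 164 and 206 against 251 CPM.

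The B cell list, with 9 of 11 genes measured, stood at 662 against 475 CPM for the control and 485 against 527 CPM for the Id2-deficient library. Of its 11 genes 0 had no UMI in control members, and 4 had none in Id2-deficient members (among them Cd79a, Ms4a1 and Ebf1, which define B cells). The control UMIs were uneven, with a median of 1 UMI per member, 301 in 1 cell, and 58.8% of Cd74, an antigen presentation gene, in 1 cell. The myeloid list, with 4 of 9 measured, stood at 653 against 300.1 CPM for the control and 120 against 162 CPM for the Id2-deficient library, where Csf1r, Fcer1g, Itgam, Cd14 and Adgre1 had 0 UMIs in members. Lyz2 was at 321 CPM in control members, and 1 cell held 99.4% of it.

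Neutrophil genes, of which 0 of 8 were measured in both libraries, had 23 UMIs in control and 4 in Id2-deficient members. The control reference held 44583 UMIs of them, 15065 in 1 cell. Genes of plasmacytoid dendritic cells, the cells known for high output of type I interferon, had 37 and 21 UMIs in members. They stood at 36.2 against 18.2 CPM in the control, with 56.8% of the members' UMIs in 1 cell. In the Id2-deficient library they stood at 26.5 against 25.6 CPM, seen in 15.5% of members and 8.26% of the reference. Siglech, which defines these cells, had 0 UMIs in members of both libraries. It had only 2 and 0 in the references, so its absence from members says little. Without the cells of the clusters named for B or myeloid cells, 107 and 97 members remained, their shares were 2.27% and 5.21%, and the other interferon-stimulated genes stood at 1.25 and 1.43.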

How the data were processed

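The deposited files hold raw UMI counts per gene and barcode for each of 2 libraries, written by Cell Ranger (5.0.1 per the file headers, 1.3 per the submitters' processing notes) on mm10 per those notes. No source used here says how barcodes were filtered. The tables hold 32285 genes. Members and gene lists were chosen with earlier results of these data known. Counts were summed over members or reference and divided by the group's total to give CPM. Log2 ratios have exact conditional binomial intervals, CPM exact Poisson and shares Clopper-Pearson intervals (95%). With 1 library per genotype no test was run. Genes needed 20 UMIs in each library. For fold calls and list medians, a gene without UMIs in a group was given 3 UMIs.

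Scrublet marked 2 control (0.0406%) and 7 Id2-deficient cells (0.362%), too few for its automatic threshold to have worked, and no cell was removed as a doublet. Clusters came from scanpy 1.11.5 and leidenalg 0.10.2 on both libraries together (2000 variable genes, 30 principal components, 15 neighbours, resolution 0.8), without 247 interferon genes, T cell receptor and immunoglobulin segments, mt- and ribosomal genes and Id2. A cluster was named when at least 3 markers of a class were among its 50 leading genes and no other class had as many. It was also required that no other class had more markers among the genes ranked first. Clusters that failed this stayed unnamed. Interval code was tested on simulated data. Other tools were Python 3.11.15, numpy 2.4.6, scipy 1.17.1, pandas 2.3.3 and matplotlib 3.10.9.

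The genes named are the selecting genes, Id2, genes of the ligand, receptor, signalling and feedback lists, the 12 genes ranked highest by their lower bound and the 12 ranked lowest by their upper bound over both libraries, the highest, lowest and most abundant of other lists, and the 8 highest and 8 lowest between libraries within members. Of the 133 genes this rule takes, 93 are printed with values, and which ones was chosen after values were seen. A few results are not reported here. The 12 highest and lowest exclude genes of which 1 cell held over 25% of member UMIs. Promoters were matched to RefSeq by symbol.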

Additional observations from a re-analysis of the deposited data

Results flagged for a closer look

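In the following results the control and Id2-deficient libraries lay on opposite sides of 0, each with an interval that excluded 0, for the log2 ratio of members over reference. With 1 library per genotype the difference between them was not tested.

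Among lists, Tfh genes stood at 0.21 in control and -0.17 in Id2-deficient cells, Th17 genes at -0.16 and 0.22, and γδ T genes at -0.77 and 0.63. Cycling genes stood at 0.82 and -0.16, with 18.1% and 41.4% of the members' UMIs in 1 cell. CD8 genes stood at 1.15 and -1.96, with 73.9% of the control UMIs in 1 cell, and myeloid genes at 1.12 and -0.43, with 64.7% in 1 cell. Translation factors stood at -0.067 and 0.035.

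Among the 133 genes of the naming rule, 12 did so. Trdc, the δ chain constant gene, was at -0.87 and 0.92, Trbc2, its β chain counterpart, at -0.13 and 0.18, and the cytokine receptor genes Il7r and Ifngr1 at -0.17 and 0.23, and at -0.39 and 0.24. Cxcr6 was at -0.40 and 0.48, the intermediate filament gene Vim at -0.23 and 0.24, and H2-D1 at -0.058 and 0.26. The cell cycle genes Stmn1 and Rrm2 went the other way, at 0.70 and -0.38, and at 0.71 and -0.81. The chaperone gene Hsp90aa1 was at 0.48 and -0.24, the proapoptotic gene Siva1 at 0.38 and -1.53, and Tpt1 at -0.13 and 0.060.

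In cells of the members' interquartile depths, 4 of these genes no longer lay on opposite sides of 0. They were Il7r (0.12 and 0.071), H2-D1 (0.14 and 0.33), Cxcr6 (-0.18 and -0.077) and Stmn1 (-1.44 and -1.16). Of Rrm2 and Siva1 only the control could be computed, at -0.34 and -0.47, which is no longer above 0. Trdc kept its directions with a control value of -0.040, and Trbc2 changed sign in both libraries (0.15 and -0.040). Of the 4 state lists, the only ones of these lists recomputed there, the γδ T list (0.049 and 0.66) and the Cycling list (-1.66 and -0.84) no longer lay on opposite sides of 0. The Th17 list was close to 0 in both (-0.029 and 0.0048).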

How the results depend on the processing

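No paired analysis was possible because each group has 1 library. The ratio of member shares lay between 1.98 and 2.62 under 10 other settings, was lower at the pooled cluster mix (1.63), and was 2.09, 2.35 and 1.80 in the bands from the shallowest to the deepest cells. With a sum of at least 4, 6 or 10 the control shares were 2.94%, 1.81% and 0.958% and the Id2-deficient shares 6.68%, 4.14% and 2.23%. Leaving out cells with at least 2 UMIs of carried-in markers removed 72.1% of control and 75.3% of Id2-deficient members. It also removed 62.3% of control and 71.9% of Id2-deficient reference cells, so most cells of either kind carry such UMIs. The control share was then 1.77%. Genes higher in both libraries numbered 500 with a sum of at least 10, 3021 with at least 1 UMI per library and 64 at 3-fold. Genes lower numbered 136 as a mean over cells and 12 at 3-fold. For these calls a gene without UMIs in a group was given 3 UMIs. With fewer members or a lower minimum, genes without member UMIs and with few reference UMIs can therefore count as higher. How many of the 500 and 3021 are such genes was not counted.

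The other interferon-stimulated genes stayed higher in both libraries under each setting. The log2 ratios were 1.53 (control) and 1.79 (Id2-deficient) with a sum of at least 10, 1.45 and 1.51 in cells of the members' interquartile depths, 1.45 and 1.49 as a mean over cells, 1.14 and 1.29 against all cells with a sum under 5, and 1.48 and 1.54 without carried-in markers. The Id2-deficient value was 1.46 with an mt- limit of 5% and 1.495 without the 4% highest Scrublet scores, and the control value 1.25 without the B and myeloid clusters, a setting chosen after seeing the data. Between libraries within members it was 0.18 at like depths, 0.14 as a mean over cells, 0.36 with a sum of at least 10 and 0.28 without those clusters. At resolution 1.2 Th17-like clusters held 18% of control and 0 Id2-deficient members, against 20.2% and 1.56% of the reference. Naive and central memory-like clusters held 10.3% of Id2-deficient members, against 14.1% of the reference. Tfh-like clusters held 48.5% of Id2-deficient members (38.2% to 58.8%), against 50.4% of the reference. An unnamed cluster led by Ly6c1 and Hspa1b held 22.7% of Id2-deficient members, against 19.6% of the reference.

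Of 2013 results of single genes under an alternative, over all 133 genes of the naming rule, 48 reversed. Those of printed genes and of lists follow, and their cause was not tested. In the interquartile depths the control values became 0.049 (γδ T list), -1.66 (Cycling list), 0.012 (Treg list), 0.13 (T cell list), 0.15 (Trbc2), 0.069 (Ccr7), 0.12 (Ighm), 0.12 (Il7r), 0.14 (H2-D1), -0.30 (Cd74), 0.087 (Malat1), 0.059 (mt-Atp6), -1.37 (Lyz2), -1.44 (Stmn1), -0.34 (Rrm2) and -0.47 (Siva1), and the Id2-deficient values -0.040 (Trbc2), -0.056 (Tmem176a), -0.077 (Cxcr6) and -0.36 (Myb). As a mean over cells the control T cell list was 0.028, Trbc2 0.051, H2-D1 0.0046 and Siva1 -0.12, and the Id2-deficient Cycling list 0.0079. With a sum of at least 10 the Id2-deficient Th17 list was -0.035, the naive and central memory list 0.020, Tmem176a -0.034, Cxcr6 -0.11 and mt-Atp6 0.084, and control Lyz2 -4.49, which was -1.09 without the B and myeloid clusters. Without carried-in markers the control values were 0.32 (Treg list), -1.77 (Cycling list), 0.15 (T cell list), 0.035 (Trbc2), 0.021 (Malat1), 0.13 (mt-Atp6), -1.80 (Rrm2), -0.21 (Siva1) and -2.16 (Stmn1), and the Id2-deficient values 2.17 (Cycling list), -0.31 (Cxcr6), -0.72 (Il7r), 0.080 (Hsp90aa1), 2.48 (Rrm2) and 1.71 (Stmn1).

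At a median depth of 5354.5 and 6179 UMIs, 0 UMIs of the selecting genes in a reference cell do not show that they are absent from it. With 1 library per genotype, genotype, mice, sort and sequencing cannot be told apart. The mt- limit removed 21.4% of the Id2-deficient and 0.243% of the control barcodes together with the gene minimum.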

Other observations

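Among the 123 genes at least 2-fold higher in members of both libraries, 62 belonged to no gene list. The ones named here were picked after their values were seen, and several are genes that interferon is known to induce. Cd274, which encodes the checkpoint ligand PD-L1, stood at 45 against 17.7 CPM in control members and reference and at 67 against 23.6 CPM in the Id2-deficient library (log2 ratio 1.35, 0.88 to 1.79, and 1.51, 1.04 to 1.95). It was seen in 35 of 111 control and 30 of 97 Id2-deficient members. Tnfsf10, the death ligand TRAIL, was at 1.33 and 2.15.

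Mndal, a member of the Ifi200 family, was the most widely detected of those named, in 103 control and 94 Id2-deficient members, at 1.39 and 1.72. Rnf213, a large ubiquitin ligase, was at 2.27 and 2.24, the RNA helicase gene Ddx60 at 2.76 and 2.18, Samd9l, a growth-restraining antiviral gene, at 1.19 and 2.05, and Pml, which forms nuclear bodies, at 1.73 and 1.81. Nampt, an enzyme of NAD synthesis, was at 2.03 and 2.12.

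Cxcl10, a chemokine for Th1 cells, was much less evenly spread. It stood at 99.8 CPM in control and 37.9 CPM in Id2-deficient members, against 1.65 CPM in both references, but came from 9 and 3 cells, and 1 cell held 75.5% and 86.7% of its UMIs.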
